A study of Mus musculus with 6 samples.

Results

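The transcripts described are those of 36 genes of the core autophagy machinery and its cargo receptors, chosen by name. All 36 were found among the 49492 gene rows of the deposited count table, and all 36 passed the filter on low counts. The cells were RAW264.7, a macrophage line from mouse, and gave 6 sequencing libraries: 3 from cells transfected with an siRNA against Ep300 and 3 from cells transfected with a control siRNA (nc_siRNA in the labels). Both siRNAs were used at 50 nM for 48 h with the same reagent, and the control cells carry the genotype label WT. All groups are thus transfected cells of 1 line, with no untransfected cells in the comparison. The silencing is partial and the labels describe 1 Ep300 siRNA group, so effects of its sequence on other transcripts cannot be told apart from effects of Ep300. The labels do not state separate cultures within a group; p-values therefore reflect only the spread among these samples, which may be technical.

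Macroautophagy encloses cytoplasm in a double membrane and delivers it to the lysosome. The ULK kinase complex starts the process, a class III phosphatidylinositol 3-kinase complex marks the membrane with PI3P, ATG9, ATG2 and the WIPI proteins supply and shape it, and ubiquitin-like conjugation attaches ATG8 proteins (the LC3 and GABARAP families) to it, which cargo receptors then bind. Macrophages use this machinery to clear damaged organelles, protein aggregates and engulfed microbes. p300, the lysine acetyltransferase encoded by Ep300, is known to acetylate several of these proteins, among them ATG5, ATG7, ATG12, LC3 proteins, beclin 1 and the kinase VPS34. The data here are mRNA levels and do not measure acetylation, protein or autophagic flux.

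Total counts ranged from 29993567 to 45377510 per library. Ep300 itself checked the labels: it stood at 51.1, 59.0 and 54.9 CPM (counts scaled by library size) after silencing and at 106.8, 115.3 and 118.4 CPM in controls, in order of replicate number, a level of 0.485 of control (edgeR adjusted p = 3.62e-05). Of 10 macrophage markers 9 were expressed at a level that could be tested and none passed; Mertk, at 0.213 CPM in controls, was too low. Csf1r and Adgre1 were lower in every Ep300 siRNA library than in any control (log2 fold changes of -0.24 and -0.23), and Cd14 and Cd68 higher (0.25 and 0.13). Their part in the results below was not tested. The summed level of the macrophage markers ran from 11050 to 12000 CPM after Ep300 siRNA and from 9781 to 11430 CPM after control siRNA. Of 20 markers of other cell types, every one averaged under 1 CPM, and the T cell marker Trac, the epithelial marker Epcam and the hepatocyte marker Alb were at 0 in all 6 libraries. Ep300 siRNA replicate 1 stood apart in its level of Gm42418, a locus with ribosomal RNA sequence, with 5823 CPM against 1327 to 2174 CPM elsewhere, so results are also given without it.

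The levels of the 36 transcripts in control cells spanned a wide range when scaled by length (CPM per kilobase of merged exons). Sqstm1, which encodes the receptor p62 that links ubiquitinated cargo to ATG8 proteins, was the most abundant at 331.3 ± 62.4 (SD, n = 3). Atg3, the E2-like enzyme that attaches ATG8 proteins to lipid, followed at 61.6 ± 1.38, and Tax1bp1, another ubiquitin-binding receptor, at 55.3 ± 1.11. The lowest level was that of Optn, the receptor optineurin, at 0.559 ± 0.0691. Sqstm1 alone took 76.7% to 82.7% of the summed level of the 5 receptors in every library, and Optn at most 0.14%. Among the ATG8 genes the order was Gabarap (35.0 ± 2.39), Gabarapl1 (27.1 ± 1.61), Gabarapl2 (13.8 ± 1.51), Map1lc3b (7.12 ± 0.110) and Map1lc3a (1.69 ± 0.705). Levels per kilobase depend on the length used. With the longest transcript in place of merged exons, Map1lc3b was at 12.9 and Tax1bp1 at 130.0, above Atg3 at 93.3, while the order within the ATG8 genes and within the receptors was kept. In bulk RNA such as this, fewer cells of a type and less RNA per cell cannot be told apart.

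**Figure D1:**
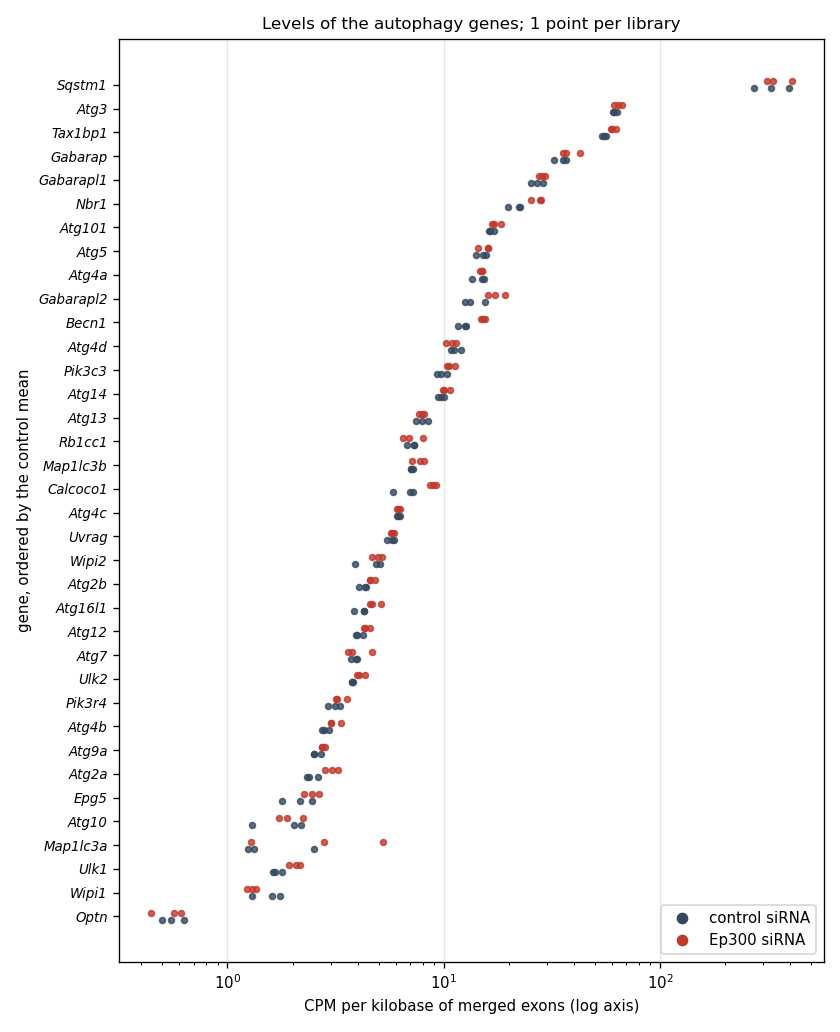
Level of each of the 36 transcripts in CPM per kilobase of merged exons (log axis), 1 point per library, ordered by the control mean, with Ep300 siRNA libraries in red and control libraries in dark blue. Sqstm1 lies above every other gene in all 6 libraries and Optn below every other gene, while Map1lc3a has the widest scatter between libraries.

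After Ep300 silencing, 5 of the 36 transcripts rose and none fell. The 5 were Becn1, Atg2a, Gabarapl2, Nbr1 and Calcoco1, and their changes were small, from 1.24-fold (Becn1 and Atg2a) to 1.33-fold (Calcoco1). Over all 15741 genes tested, 2.76% rose and 4.02% fell, 6.78% in either direction (edgeR's quasi-likelihood test with a Benjamini-Hochberg adjusted p under 0.05), against 13.9% of the 36. At an unadjusted p under 0.05 (edgeR) stood 8 of the 36, each with a positive log2 fold change. That is the same share as the 22.2% of all genes at that level. The median absolute log2 fold change of the 36 was 0.106, below the 0.141 of all genes tested. DESeq2 and limma-voom each also gave 5 that rose and none that fell. Of the 36 transcripts, 31 had a positive log2 fold change, 86.1% against 49.2% of all genes tested, with a median of 0.10 against 0.00 (-0.004) over all genes. For 14 of the 36 (38.9%, against 27.5% of all genes in either direction), the 3 Ep300 siRNA libraries all lay above the 3 control libraries, and for none did they all lie below. Over all genes tested those shares were 13.0% and 14.4%. The list and its comparison with all genes are a description, since its members were chosen with earlier results of these data known.

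The count of 5 rested on few libraries. Leaving out 1 library at a time gave from 2 to 4 rises. It gave 3 without Ep300 siRNA replicate 1, 2 without Ep300 siRNA replicate 2, and 3 without Ep300 siRNA replicate 3 or control replicate 2. Becn1 and Calcoco1 passed in all 6 of these fits. On library sizes alone, with no scaling factor, 3 rose (Becn1, Nbr1 and Calcoco1). The median of the 36 was then 0.069 and that of all genes -0.038. The distance between the medians was 0.107, against 0.108 with TMM scaling. A change of scaling shifts all genes by nearly the same amount, so this distance could hardly move and is no check. The split of all calls was 435 higher and 633 lower with TMM scaling and 316 higher and 788 lower on library sizes alone.

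**Figure D2:**
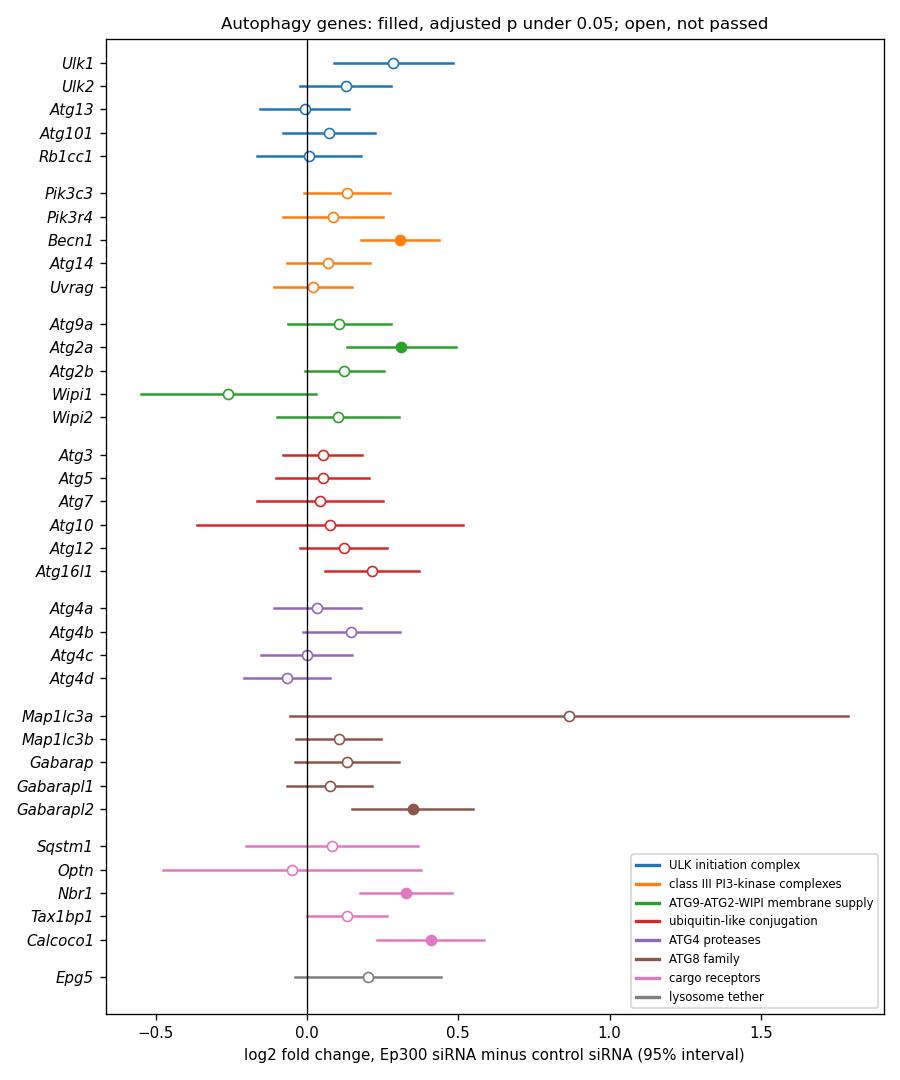
Log2 fold change of each of the 36 transcripts after Ep300 siRNA against control siRNA, with its 95% interval, in blocks by role; filled points passed the adjusted p of 0.05 and open points did not. The 5 filled points lie between 0.31 and 0.41, and most open points lie to the right of 0 with intervals that include it.

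Promoter sequence was examined for the members, and its part in their changes was not tested. RefSeq promoters (GRCm38.p6, 250 bases before to 50 bases after the annotated start) were matched by symbol for 29 of the 36 genes, among them 4 of the 5 that rose. Shown first, for those 4, are the stretches from 150 bases before to 20 bases after the start, 5′ to 3′ on the gene's strand. Nbr1 has 2 annotated starts, and the stretch at the upstream one is given. Then follow the 4 members whose promoter held the E-box CACGTG, the core of the site that MiT/TFE factors and MYC bind, none of which passed the test. The Atg2a and Nbr1 stretches held none of the motifs searched. Capitals mark the E-box, the GC box GGGCGG that SP and KLF factors bind, or the CRE TGACGTCA that CREB binds, on either strand.
Atg2a, chr19:6241518-6241687, plus strand: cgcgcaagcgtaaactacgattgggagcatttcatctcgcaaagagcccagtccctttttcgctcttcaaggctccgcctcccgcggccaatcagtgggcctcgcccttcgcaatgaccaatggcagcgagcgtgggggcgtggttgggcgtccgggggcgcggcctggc
Gabarapl2, chr8:111940553-111940722, plus strand: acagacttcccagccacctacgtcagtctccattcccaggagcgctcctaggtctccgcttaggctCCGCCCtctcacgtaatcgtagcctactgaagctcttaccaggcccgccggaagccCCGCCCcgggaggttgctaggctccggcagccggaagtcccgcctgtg
Nbr1, chr11:101551957-101552126, plus strand: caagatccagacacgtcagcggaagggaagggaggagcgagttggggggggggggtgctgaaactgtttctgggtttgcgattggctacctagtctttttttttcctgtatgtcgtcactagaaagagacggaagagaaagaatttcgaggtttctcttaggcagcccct
Calcoco1, chr15:102722159-102722328, minus strand: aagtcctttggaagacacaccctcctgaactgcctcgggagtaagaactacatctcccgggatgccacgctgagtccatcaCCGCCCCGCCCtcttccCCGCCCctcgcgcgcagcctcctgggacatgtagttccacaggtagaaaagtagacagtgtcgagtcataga
Atg3, chr16:45158679-45158848, plus strand: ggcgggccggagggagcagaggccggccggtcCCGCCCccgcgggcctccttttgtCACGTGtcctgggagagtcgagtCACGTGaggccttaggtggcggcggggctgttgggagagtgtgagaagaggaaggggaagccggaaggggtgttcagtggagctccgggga
Atg5, chr10:44268189-44268358, plus strand: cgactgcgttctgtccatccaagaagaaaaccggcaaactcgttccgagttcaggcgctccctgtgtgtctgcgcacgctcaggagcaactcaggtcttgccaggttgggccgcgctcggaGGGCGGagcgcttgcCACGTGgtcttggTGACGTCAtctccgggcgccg
Atg7, chr6:114670946-114671115, plus strand: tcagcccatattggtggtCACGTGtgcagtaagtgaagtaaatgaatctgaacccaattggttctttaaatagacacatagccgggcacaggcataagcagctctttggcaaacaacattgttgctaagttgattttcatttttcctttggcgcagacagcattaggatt
Atg14, chr14:47568415-47568584, minus strand: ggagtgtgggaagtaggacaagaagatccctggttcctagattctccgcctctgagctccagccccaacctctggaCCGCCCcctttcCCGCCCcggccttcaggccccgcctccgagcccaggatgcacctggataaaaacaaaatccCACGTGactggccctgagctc

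The E-box was found for 4 of the 29 genes (13.8%), Atg3, Atg5, Atg7 and Atg14. The share was 11.8% of tested genes with a promoter entry and 7.15% of all promoters of this length. Shares of genes, here and below, count a gene if any of its promoters held the motif. Shares of all promoters count single entries, so the 2 are not alike. Atg3, in whose promoter it stood at 94 and 71 bases before the start, held 2 copies. The GC box was found in 21 of 29 (72.4%), against 66.7% of tested genes and 35.7% of all promoters, and Calcoco1, Gabarapl2 and Nbr1 were among them; the Nbr1 match lay outside the stretch shown. The CRE was found in the promoter of Atg5 alone, and in 3.69% of tested genes. The AP-1 site TGACTCA was in none of the 29, and in 4.62% of tested genes. These are matches of letters, not measured binding.

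No transcript of the ULK initiation complex passed the test. Ulk1, the kinase, had the largest difference of the 5. It was at 12.5, 14.0 and 13.4 CPM in the 3 Ep300 siRNA libraries and at 10.5, 10.7 and 11.5 CPM in the 3 controls. Every Ep300 siRNA library lay above every control, by 0.29 ± 0.09 on the log2 scale (SE, edgeR adjusted p = 0.0847; unadjusted p = 0.00848). Its paralog Ulk2 was also higher in each Ep300 siRNA library, 23.8 to 26.0 against 22.4 to 22.7 CPM, with a log2 fold change of 0.13 ± 0.07 (SE). The remaining subunits overlapped between groups: Atg13 was at a log2 fold change of -0.01, the stabilising partner Atg101 at 0.07 and the scaffold Rb1cc1 (FIP200) at 0.01.

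In the class III phosphatidylinositol 3-kinase complexes, Becn1 rose and the other 4 subunits did not pass. Becn1 encodes beclin 1, the subunit through which the kinase is regulated (GRCm38 chromosome 11, 101285952 to 101302286, minus strand). It was at 109.2, 104.8 and 107.8 CPM in the Ep300 siRNA libraries and at 88.5, 89.2 and 82.2 CPM in the controls. The groups did not overlap, and the 3 libraries within each lay close together. The rise was 1.24-fold (log2 fold change 0.31 ± 0.06, SE; 95% interval 0.18 to 0.44; edgeR adjusted p = 0.0101). Becn1 shares 3104 exon bases, 43.9% of its merged exons, with Cntd1 on the opposite strand. Cntd1 was counted at 24.0, 24.2 and 24.3 CPM after Ep300 siRNA and at 19.0, 20.8 and 20.4 CPM in controls, and rose by 0.27 ± 0.07 (SE, edgeR adjusted p = 0.0396). The library kit marks strand, but no source used here says whether the counting used it; where the exons overlap, reads of both genes then cannot be told apart.

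The catalytic subunit Pik3c3 (VPS34) was at 47.4, 46.4 and 50.3 CPM against 46.3, 43.5 and 41.7 CPM, groups that were apart but nearly touched (log2 fold change 0.13 ± 0.07, SE, edgeR adjusted p = 0.264). Its regulatory partner Pik3r4 (VPS15) was at 0.09, Atg14, which directs the complex to sites of autophagosome formation, at 0.07, and Uvrag, which takes the place of ATG14 in the endosomal form, at 0.02. All 3 overlapped between groups. The longest Uvrag transcript also shares a stretch of over 200 bases at 95% identity or more with transcripts of several other genes, so reads there are uncertain.

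Among the genes of membrane supply, Atg2a rose. ATG2 proteins transfer lipid to the growing membrane. Atg2a (chromosome 19, 6241668 to 6262335, plus strand) was at 24.9, 21.7 and 23.5 CPM in the Ep300 siRNA libraries and at 17.9, 18.3 and 20.3 CPM in the controls. The groups were apart, with Ep300 siRNA replicate 2 and control replicate 3 nearest each other. The rise was 1.24-fold (log2 fold change 0.31 ± 0.08, SE; 95% interval 0.13 to 0.49; edgeR adjusted p = 0.0444). The call was lost without any 1 of the 3 Ep300 siRNA libraries or control replicate 1 or 2 (adjusted p up to 0.132) and on library sizes alone (adjusted p = 0.0708).

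Its paralog Atg2b was at 64.8, 61.4 and 61.2 CPM against 54.7, 59.1 and 58.2 CPM, also apart (log2 fold change 0.12 ± 0.06, SE, adjusted p = 0.255). Atg9a, the lipid scramblase of ATG9 vesicles, was at 15.7 to 16.4 against 14.4 to 15.5 CPM and did not pass (0.11 ± 0.08, SE). It shares 31.8% of its exon bases with Gm29253 on the same strand, which makes its count uncertain. The PI3P-binding proteins went apart in sign. Wipi2 was at 0.10 ± 0.09 (SE), and Wipi1 had the lowest log2 fold change of the 36, -0.26 ± 0.13 (SE, adjusted p = 0.279), with 5.46, 6.0 and 5.72 CPM after Ep300 siRNA and 7.11, 5.72 and 7.74 CPM in controls. Control replicate 2 fell among the Ep300 siRNA libraries.

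None of the 6 conjugation genes passed. Atg16l1, which places the ATG12-ATG5 conjugate on the membrane, came closest: it was at 44.9, 49.5 and 44.0 CPM after Ep300 siRNA and at 41.2, 37.0 and 41.2 CPM in controls, groups that did not overlap (log2 fold change 0.21 ± 0.07, SE, adjusted p = 0.0988). Atg12 was at 32.9 to 35.3 against 30.2 to 32.6 CPM, also apart (0.12 ± 0.07, SE, adjusted p = 0.313). Atg5, the partner of ATG12, overlapped between groups (0.05 ± 0.07, SE; 95% interval -0.10 to 0.21). Atg7, the E1-like enzyme of both conjugation systems, was at 32.6, 26.2 and 25.1 CPM against 27.4, 27.8 and 25.9 CPM (0.04 ± 0.09, SE; 95% interval -0.16 to 0.25), and its highest value was that of Ep300 siRNA replicate 1. Atg3 was at 0.05 ± 0.06 (SE). Atg10, the E2-like enzyme for ATG12, was at only 3.17 CPM in controls, and its log2 fold change of 0.08 had a 95% interval of -0.36 to 0.52.

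None of the 4 ATG4 proteases, which trim ATG8 proteins before conjugation and release them from lipid, passed. Atg4b had the highest value, 0.15 ± 0.07 (SE), with 25.0 to 27.8 against 22.6 to 24.3 CPM and no overlap. Atg4a was at 0.03, Atg4c at 0.00 (-0.0002) and Atg4d at -0.07, all with overlapping groups. Atg4d shares 19.3% of its exon bases with the more abundant gene Kri1 on the opposite strand, and Atg4a has a copy, Atg4a-ps, at 99.3% identity, which held 112 counts over all libraries against 8591 for Atg4a.

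In the ATG8 family Gabarapl2 rose and the other 4 members did not pass. Gabarapl2, also known as GATE-16, acts late in autophagosome formation and in Golgi transport (chromosome 8, 111940703 to 111953612, plus strand). It was at 44.9, 37.4 and 40.3 CPM in the Ep300 siRNA libraries and at 35.9, 30.9 and 29.2 CPM in the controls. The groups were apart, though Ep300 siRNA replicate 2 and control replicate 1 stood close to each other. The rise was 1.27-fold (log2 fold change 0.35 ± 0.09, SE; 95% interval 0.15 to 0.55; edgeR adjusted p = 0.0413). It was lost without any 1 of the 3 Ep300 siRNA libraries or control replicate 2 or 3 (adjusted p up to 0.129) and on library sizes alone (adjusted p = 0.0646). Its 3 processed pseudogenes at over 95% identity held from 16 to 42 counts each against 7944 for Gabarapl2.

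Gabarap was at 0.13 ± 0.08 (SE), Map1lc3b (LC3B) at 0.10 ± 0.06 and Gabarapl1 at 0.08 ± 0.06, all with overlapping groups. Gabarapl1 shares 28.3% of its exon bases with 1700101I11Rik on the opposite strand. Of the processed pseudogenes near-identical to Map1lc3b, Gm6055 (99.6% identity) held the most counts, 399 over all libraries against 12129 for Map1lc3b. Map1lc3a (LC3A) had the highest log2 fold change of the 36, 0.87 ± 0.42 (SE; 95% interval -0.06 to 1.79), but did not pass (edgeR adjusted p = 0.258). It was at 6.21, 3.29 and 1.51 CPM after Ep300 siRNA and at 1.47, 1.56 and 2.96 CPM in controls. Ep300 siRNA replicate 1 was highest and replicate 3 lay among the controls. Without Ep300 siRNA replicate 1 its log2 fold change was 0.28 (edgeR adjusted p = 0.741), below those of Calcoco1 (0.40), Ulk1 (0.34), Nbr1 (0.31) and Becn1 (0.30) in the same fit, so its rank rested on that library. With no filter on low counts Map1lc3a passed (edgeR adjusted p = 0.000231), in a fit of 30207 genes. That fit gives far smaller p-values at like fold changes. For Ep300 the edgeR adjusted p was 1.07e-41 in it (log2 fold change -1.05), against 3.62e-05 with the filter (-1.043). The share of Gabarapl2 in the summed level per kilobase of the 5 ATG8 genes was 18.4%, 17.9% and 19.0% after Ep300 siRNA and 17.3%, 15.7% and 15.7% in controls.

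The cargo receptors held 2 of the 5 rises. Nbr1, an ubiquitin-binding receptor related to p62 (chromosome 11, 101552149 to 101581951, plus strand), was at 192.6, 190.7 and 173.5 CPM in the Ep300 siRNA libraries and at 136.4, 154.3 and 152.6 CPM in the controls. The groups were apart. The rise was 1.26-fold (log2 fold change 0.33 ± 0.07, SE; 95% interval 0.18 to 0.48; edgeR adjusted p = 0.0165) and was lost without Ep300 siRNA replicate 2 (adjusted p = 0.067). Brca1, whose start lies 194 bases from that of Nbr1 on the opposite strand, was at 85.4 to 88.8 CPM after Ep300 siRNA and at 92.3 to 99.9 CPM in controls (-0.15 ± 0.06, SE, adjusted p = 0.153).

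Calcoco1, a receptor for the endoplasmic reticulum and Golgi (chromosome 15, 102706777 to 102722178, minus strand), had the largest rise. It was at 52.6, 49.3 and 51.1 CPM in the Ep300 siRNA libraries and at 40.2, 41.5 and 33.5 CPM in the controls. All Ep300 siRNA libraries lay above all controls, of which replicate 3 was lowest. The rise was 1.33-fold (log2 fold change 0.41 ± 0.08, SE; 95% interval 0.23 to 0.59; edgeR adjusted p = 0.0118), and 0.33 on the log2 scale without control replicate 3 (adjusted p from 0.0139 to 0.0395 with 1 library left out).

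Tax1bp1 was at 598.4, 624.9 and 592.6 CPM against 552.0, 563.5 and 541.3 CPM, apart but not past the threshold (log2 fold change 0.13 ± 0.06, SE, adjusted p = 0.223). Sqstm1 was at 1365, 1118 and 1050 CPM against 1331, 1091 and 913.0 CPM. These groups overlapped, and the spread within each was larger than the difference (0.08 ± 0.13, SE; 95% interval -0.20 to 0.37). Sqstm1 shares 17.3% of its exon bases with Mrnip on the opposite strand, for which no count was found under that symbol. Optn, at 2.10 CPM in controls, was at -0.05 ± 0.20 (SE). Epg5, a tether that helps autophagosomes fuse with late endosomes and lysosomes, was at 26.7, 24.7 and 22.6 CPM against 17.9, 24.7 and 21.8 CPM (0.20 ± 0.11, SE, adjusted p = 0.322), with control replicate 1 lowest.

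**Figure D3:**
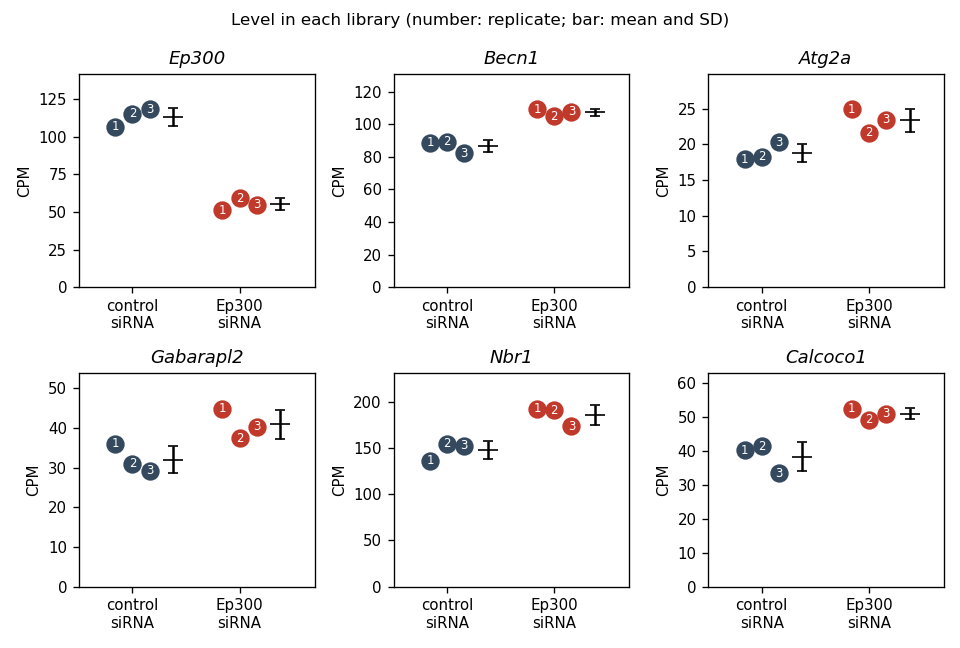
CPM in each library for Ep300 and the 5 autophagy transcripts that rose, with numbered points for replicates and a bar for the mean and SD of 3 libraries per group; each axis starts at 0. Ep300 falls to 0.485 of its control level, while each of the 5 others is 1.24-fold to 1.33-fold higher, with no overlap between groups.

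Ratios between members of one complex or family within a library do not depend on scaling between libraries. Of 10 such ratios, chosen after the values were seen and given with no test, 6 were apart between groups. Every transcript that rose is the first gene of at least 1 ratio, so this count was partly set by the choice. The share over other gene pairs was not computed. On the log2 scale and per length, Becn1 to Pik3c3 was at 0.50 ± 0.05 after Ep300 siRNA and 0.32 ± 0.05 in controls (SD, n = 3). Atg2a to Atg2b was at -0.61 ± 0.07 and -0.80 ± 0.09, and Gabarapl2 to Gabarapl1 at -0.70 ± 0.08 and -0.98 ± 0.08. Wipi1 to Wipi2 went the other way, at -1.93 ± 0.12 and -1.56 ± 0.10 (Wipi1 being the rarer). Calcoco1 to Tax1bp1 was at -2.77 ± 0.08 and -3.05 ± 0.14, whereas Nbr1 to Sqstm1 overlapped between groups, at -3.69 ± 0.15 and -3.93 ± 0.36, with a wide spread among the controls. Gabarapl2 to Map1lc3b also overlapped, at 1.197 ± 0.12 and 0.95 ± 0.16, as did Atg16l1 to Atg5, at -1.70 ± 0.18 and -1.86 ± 0.15, and Atg14 to Uvrag, at 0.82 ± 0.08 and 0.77 ± 0.10. The sixth ratio that was apart, Ulk1 to Ulk2, was at -1.01 ± 0.07 and -1.16 ± 0.07.

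Across libraries, the median deviation of the 36 transcripts from their own means (log2 CPM) was 0.09, 0.04 and 0.01 in the Ep300 siRNA libraries (by replicate number) and -0.07, -0.03 and -0.06 in the controls. Ep300 siRNA replicate 1, the library with the most Gm42418, was thus the highest, most of all for the cargo receptors (0.22, against 0.15 and 0.06) and the ATG8 genes (0.22, against 0.05 and 0.01). The part of Gm42418 in these values was not tested. Without that library the median log2 fold change of the 36 was 0.08, with 30 of them positive. Atg13, Atg4c, Atg4d and Wipi1 were negative there as in the fit of all libraries. Atg7 (-0.07) and Sqstm1 (-0.03) turned negative without it, and Optn was positive (0.07). Sqstm1 was also negative without control replicate 3 (-0.035). Signs near 0 moved with the scaling: Rb1cc1 and Uvrag were negative on library sizes alone, and Atg4c was positive with RLE or upper-quartile scaling.

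**Figure D4:**
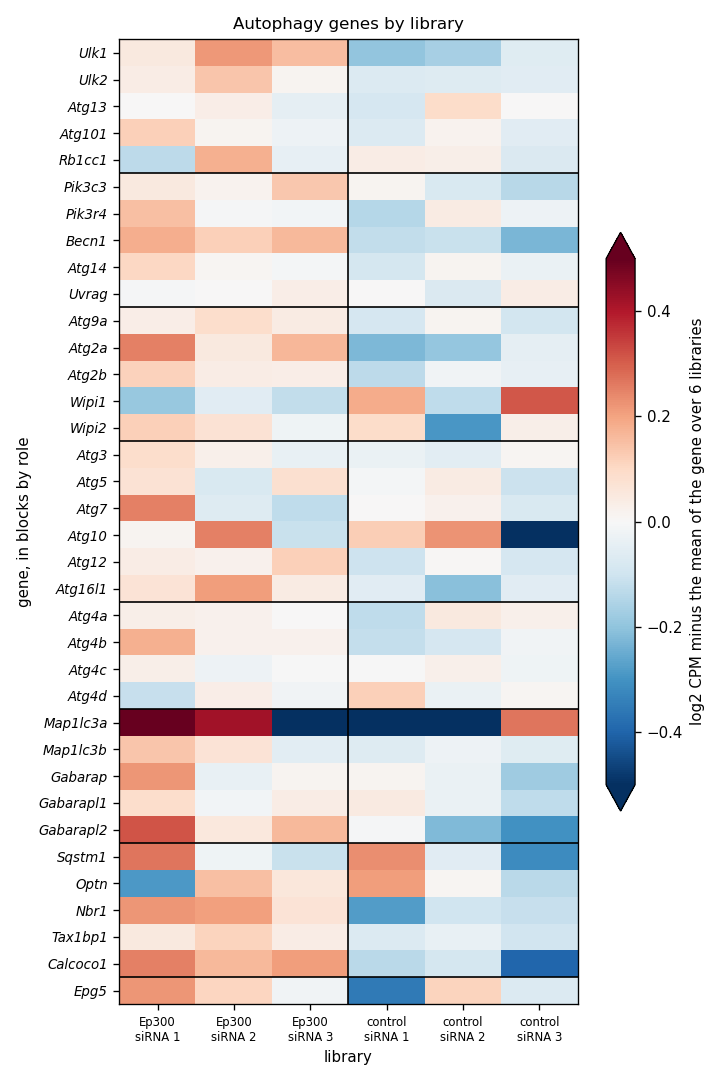
Log2 CPM of each of the 36 transcripts in each library minus the gene's mean over the 6 libraries, in blocks by role, with Ep300 siRNA libraries to the left of the vertical line; values past 0.5 in either direction share the end colours. Most rows are redder on the left. Many lie above their mean in all 3 Ep300 siRNA libraries, among them Becn1, Calcoco1, Nbr1, Gabarapl2, Atg2a and Ulk1. Map1lc3a and Sqstm1 vary within both groups.

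Genes that act around this core were read from a list of 96 related genes, Ep300 itself left out. In it 9 rose and 7 fell of 95 tested (16.8%, against 6.78% of all genes in either direction), with a median log2 fold change of 0.03. Among accessory factors of membrane formation, Ei24, an endoplasmic reticulum protein needed for autophagosome maturation, was at 73.7, 56.9 and 48.8 CPM against 36.9, 30.2 and 39.4 CPM (0.75 ± 0.14, SE, adjusted p = 0.00749). Tmem41b, a lipid scramblase of the same membrane, named outside the rule, rose by 0.27 ± 0.07 (SE). Wdr45b, a WIPI-family protein, fell by 0.46 ± 0.08 (SE). Transcripts of the complex of C9orf72, SMCR8 and WDR41, which acts on small GTPases and on ULK1, differed in sign. Wdr41 rose by 0.38 ± 0.07 (SE) and 3110043O21Rik, the mouse C9orf72 gene, by 0.30 ± 0.07, while Smcr8 fell by 0.26 ± 0.06.

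Of the fusion genes, Snap29, a SNARE protein of autophagosome fusion, rose by 0.33 ± 0.06 (SE) and Ykt6, another SNARE protein, fell by 0.27 ± 0.07. Of the mitophagy and reticulophagy genes, Pink1, the kinase that marks damaged mitochondria, rose by 0.60 ± 0.13 (SE), and the receptors Ccpg1 and Rtn3 by 0.43 ± 0.09 and 0.27 ± 0.06. Phb2, an inner mitochondrial membrane receptor, fell by 0.38 ± 0.06 (SE), and Ncoa4, the receptor for ferritin, by 0.43 ± 0.08. Of 30 tested genes of mTORC1 and AMPK control, Lamtor1, a lysosomal anchor of mTORC1 signalling, was the only one to pass, at 0.32 ± 0.07 (SE, adjusted p = 0.0219).

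Of 10 transcription factors that control autophagy genes none rose and 2 fell (20%, against 6.78% of all genes called in either direction). These were Mitf, by 0.29 ± 0.06 (SE), and Bhlhe40, a repressor, by 0.42 ± 0.07. Tfeb was at -0.05 ± 0.10 (SE) and Tfe3 at 0.06 ± 0.06. Atf4 (-0.25 ± 0.08, SE) and Nfe2l2 (-0.21 ± 0.06) did not pass but were lower in every Ep300 siRNA library than in any control. Over the 10 factors, 3 log2 fold changes were positive and 7 negative (30% positive, against 49.2% of all genes tested). Their median was -0.069, against -0.004 over all genes. With so few factors these shares are a description. Apart from Ep300, none of the acetyltransferases and deacetylases listed passed: Crebbp was at 0.14 ± 0.07 (SE), Kat5 at 0.16 ± 0.08, Sirt1 at -0.16 ± 0.09 and Sirt2 at 0.18 ± 0.07. Of the 16 related genes called, 7 kept their call whichever library was omitted: Bhlhe40, Ccpg1, Ei24, Phb2, Snap29, Wdr41 and Wdr45b. The calls of Smcr8, Tmem41b and Ykt6 were lost with 5 of the 6 libraries (adjusted p up to 0.145). Mitf and Lamtor1 lost theirs with 4, 3110043O21Rik and Rtn3 with 3, Pink1 with 2 and Ncoa4 with 1 (adjusted p up to 0.0762). The number called was 10 without Ep300 siRNA replicate 1, 8 without control replicate 2 and 9 without control replicate 3.

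**Figure D5:**
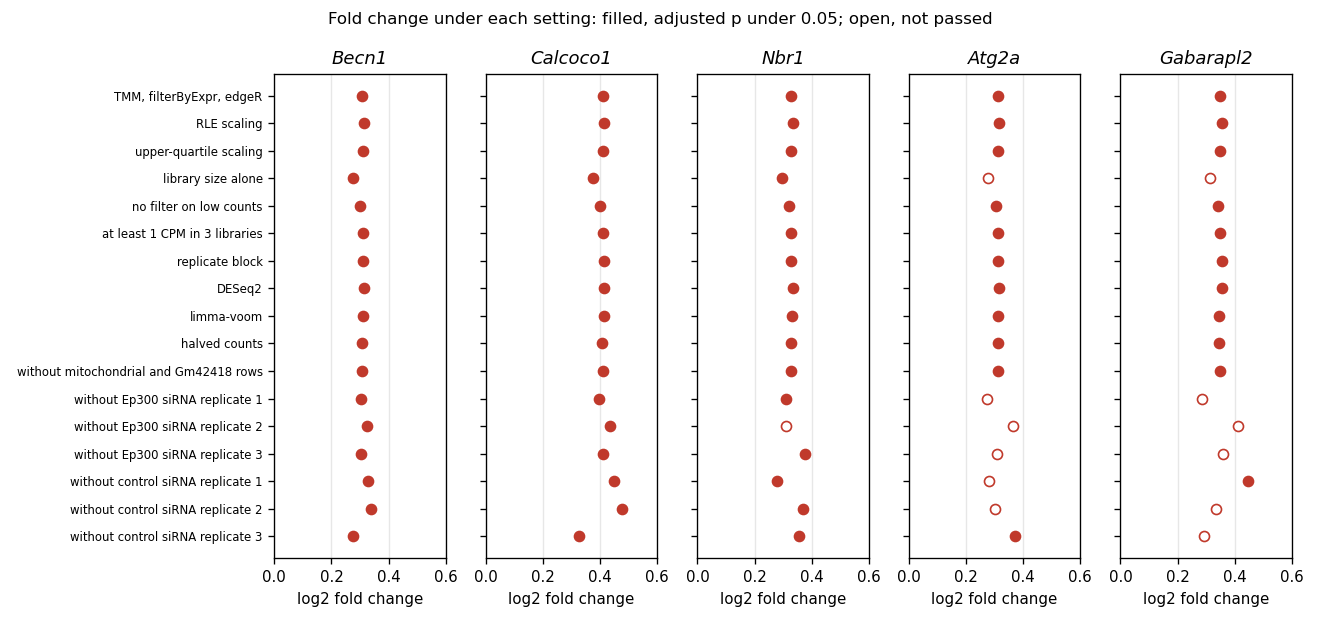
Log2 fold change of the 5 transcripts that rose under each processing setting and with each library left out, filled where the adjusted p was under 0.05. Becn1 and Calcoco1 are filled throughout, Nbr1 is open without Ep300 siRNA replicate 2, and Atg2a and Gabarapl2 are open on library sizes alone and in 5 of the 6 fits that leave out a library.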

How the data were processed

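Stranded mRNA libraries from 6 samples were sequenced, 3 per group, per the labels. The authors deposited raw counts per gene symbol, 1 column per library; the tools listed, per the submitters' processing notes, are STAR 2.5.3a, fastp 0.23.4, edgeR 3.12.1 and featureCounts, and the build is GRCm38. Annotation, strand and multimapping settings: not given in the sources used here. Even values made up 79.8% to 80.9% of the counts between 1 and 4, so halved counts were also tried. Columns were matched to samples by title.

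The test on counts was that of edgeR 4.0.16, under R 4.3.3 (filterByExpr by group, TMM, quasi-likelihood F-test between the groups, no covariate), with two-sided p-values adjusted by Benjamini-Hochberg over all 15741 genes tested and a threshold of 0.05. The fit was checked on simulated counts, where it recovered 19 of 50 changes of 1.25-fold (38%) and 44 of 50 of 1.5-fold (88%). Not passing is therefore not a sign of no change at folds that small. The simulation gave 165 calls, against 1068 in the data, and changed no gene at levels as low as Optn, Map1lc3a or Atg10. Its recovery shares may therefore differ from those in the data. CPM uses TMM-scaled library sizes. Standard errors were derived as the fold change (log2) over the root of F. Coordinates, exon overlaps and lengths are from GENCODE M21 (GRCm38), and near-identical copies (at least 95% identity over 200 bases) were found with BLAST 2.17.0. Promoters are from RefSeq. PCR copies are not independent molecules, so counts overstate precision.

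The members and lists were chosen with earlier results of these data known. Every member that passed is given in full. Of the others, those with the highest and lowest fold change, an unadjusted p under 0.05 or known acetylation by p300 are given by value, and of the related genes at most 3 per role and direction. Other genes were named after their values were seen. Libraries of a group differed beyond counting noise (a chi-square statistic of 9.33 to 33.2 for each degree of freedom). Alternatives were other scaling (RLE, upper quartile, none), other filters, a block for replicate number, limma-voom (limma 3.58.1), DESeq2 1.42.0, halved counts, rows left out, a threshold of 0.01 and each library left out.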

Additional observations from a re-analysis of the deposited data

How the results depend on the processing

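The count of 5 rises and no falls among the 36 autophagy transcripts was the same with RLE and upper-quartile scaling, DESeq2 and limma-voom. The same count came with a filter of 1 CPM in 3 libraries, halved counts, and Gm42418 and mitochondrial genes left out. It was 6 with no filter on low counts, where Map1lc3a also passed. It was 3 on library sizes alone and from 2 to 4 with 1 library left out. At an edgeR adjusted p under 0.01 it was 0 (8 at an unadjusted p under 0.05). The related genes gave 16 calls, 9 higher and 7 lower. At 0.01 they gave 7, 3 higher and 4 lower. With 1 library left out they gave from 8 to 18 calls, from 5 to 10 higher and from 3 to 8 lower, lowest without control siRNA replicate 2. Over all genes tested, those fits gave from 490 to 1054 calls, against 1068 with all libraries. No transcript of the 36 that passed in any setting changed sign, and Ep300 passed in every setting.

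The correlation of deviations between samples of the same replicate number was 0.087, 0.02 and -0.047 for numbers 1, 2 and 3. Between samples of different numbers it ran from -0.101 to 0.088, and not every sample correlated best with its own number. With 3 libraries per group, these values cannot decide whether the numbers pair the samples. With the replicate number as a block, 5 of the 36 rose and 1357 genes were called over the whole table, against 1068 without it. The 95% intervals of Optn (-0.48 to 0.38) and Map1lc3a (-0.06 to 1.79) are wide; the part of depth in them was not tested.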
